A study of Mus musculus with 17 samples.

Results

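Polycomb repressive complex genes were followed through the blasts of mice that carry a Spi1 transgene, before and after leukaemic progression, with and without Fanca. The 10 genes examined were Ezh1, Ezh2, Suz12, Eed, Jarid2, Bmi1, Ring1, Rnf2, Cbx7 and Asxl1, taken by symbol from the 28600 genes listed in the count tables of both models. Each symbol was found in the table of model 1 (26029 genes) and in that of model 2 (24659 genes), and all 10 passed the filter on low counts in both. The study asked what FANCA, a protein of the Fanconi anaemia DNA repair pathway, changes in an erythroleukaemia driven by the transcription factor SPI1 (PU.1).

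RNA-seq had been made from 17 mice with 1 library per mouse, from erythroid blasts of sick animals that were kept in culture with erythropoietin (EPO). All animals carried the Spi1 transgene. Preleukaemic blasts need EPO to survive and do not form tumours on engraftment, whereas leukaemic blasts are EPO-independent and tumorigenic. Model 1, on a DBA2JxFVB/N background, held 3 groups. Preleukaemic blasts came from 4 TgSpi1FA+/+ animals (P138, P445, P451 and P479) and from 3 TgSpi1FA-/- animals (P40, P77 and P224), and leukaemic blasts from 3 other TgSpi1FA-/- animals (L26, L28 and L39). Model 2, on a DBA2J background, held 4 preleukaemic (P633, P663, P812 and P837) and 3 leukaemic (L601, L606 and L921) TgSpi1FA+/+ mice, the latter from animals given serial blood transfusions. In the breeding scheme of model 1 the TgSpi1FA-/- mice received the transgene from 1 parent only. Mice are named here by stage (P for preleukaemic, L for leukaemic) and by the number in the sample title. Ages and sexes are not given in the labels used here. Library preparation used 400 ng of RNA fragmented for 8 min in model 1 and 300 ng fragmented for 2 min in model 2, so that model, strain and library protocol cannot be told apart. The column names of the deposited table call P40, P77 and P224 leukaemic, whereas the sample titles say preleukaemic, and the titles were followed.

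Polycomb proteins keep developmental genes silent through marks on histones. In Polycomb repressive complex 2 (PRC2), EZH1 or EZH2 methylates lysine 27 of histone H3, together with the scaffold SUZ12 and the subunit EED, and JARID2 is an accessory subunit that helps to recruit it. In Polycomb repressive complex 1 (PRC1), RING1 or RNF2 (RING1B) ubiquitinates histone H2A, BMI1 is a PCGF subunit that partners them, and CBX7 is a chromodomain subunit that reads the mark of PRC2. ASXL1 works with the deubiquitinase BAP1, which removes the mark of PRC1. In blood cells BMI1 is known for stem cell self-renewal, and EZH2 and ASXL1 are recurrently mutated in myeloid disease.

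Total counts ranged from 29964576 to 38217654 per library in model 1 and from 37726753 to 40514205 in model 2. Levels are given as CPM, the count of a gene scaled to a common library size by edgeR's TMM method, each model on its own. Fanca had 28.2 to 83.5 CPM in the TgSpi1FA+/+ libraries of model 1 and 0.615 to 2.30 CPM in the 6 TgSpi1FA-/- libraries. The counts of P445 and P479 were closer to each other than those of any other pair of the same group in model 1, by a chi-square per degree of freedom (8.68, against at least 122.5). They were kept as 2 mice, as the sample titles give them. Whether they are independent cannot be told from the labels, so n = 4 for this group may be too high. Spi1 had 629.9 and 219.7 CPM in the leukaemic mice L26 and L28 but 3.88 CPM in L39, and its range was 669.97 to 780.6 CPM in P77, P224 and P40. Xist, which marks an inactive X chromosome, had 41534 and 23647 counts in P77 and P40 and 29379 in P138, and at most 3 in the other libraries of model 1. The summed CPM of 12 erythroid markers, all 12 detected in each group, was 6049 to 9132 in TgSpi1FA+/+ and 5988 to 7216 in TgSpi1FA-/- preleukaemic cells, and 2616 to 4821 in TgSpi1FA-/- leukaemic cells. Gata1, a defining factor of the erythroid lineage, had a log2 fold change of −0.33 between the TgSpi1FA-/- stages (adjusted p = 0.170 by the edgeR quasi-likelihood fit). The 3 erythroid genes that passed were all lower in leukaemic cells, namely Klf1, an erythroid transcription factor (−1.27, adjusted p = 0.00626), Ank1, a membrane skeleton gene (−0.94, adjusted p = 0.0238), and the globin gene Hbb-bt (−5.94, adjusted p = 0.0265), which shares reads with near-identical copies. The sum of 6 megakaryocyte markers was 31.1 to 40.03 CPM in TgSpi1FA-/- preleukaemic and 166 to 251 CPM in leukaemic cells, and 43.6 to 192 CPM in TgSpi1FA+/+ preleukaemic cells. Of the 4 that were tested, Itga2b was called (log2 fold change 3.20) and Pf4, Gp9 and Ppbp were not. The sum of 8 myeloid markers was at most 10.2 CPM in any library of either model. The part of these differences in the results below was not tested. In RNA from a whole culture, fewer cells of a type and less RNA per cell cannot be told apart.

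Of the members, 4 are shown first by the sequence before their start sites, because they are the ones that differed between the stages of TgSpi1FA-/- cells. The 120 bases before the start of each gene are given 5′ to 3′ from RefSeq (GRCm38.p6), with capitals marking GC boxes, the motif GGGCGG bound by SP and KLF factors, on either strand (CCGCCC on the other).
Ezh1: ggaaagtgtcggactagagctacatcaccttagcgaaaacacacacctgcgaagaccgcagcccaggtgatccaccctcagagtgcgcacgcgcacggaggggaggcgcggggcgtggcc
Suz12: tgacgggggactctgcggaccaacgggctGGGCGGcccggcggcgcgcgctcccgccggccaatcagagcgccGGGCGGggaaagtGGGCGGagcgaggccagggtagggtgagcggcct
Ring1: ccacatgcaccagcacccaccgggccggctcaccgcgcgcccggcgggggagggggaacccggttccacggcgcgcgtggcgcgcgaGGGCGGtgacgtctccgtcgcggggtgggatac
Rnf2: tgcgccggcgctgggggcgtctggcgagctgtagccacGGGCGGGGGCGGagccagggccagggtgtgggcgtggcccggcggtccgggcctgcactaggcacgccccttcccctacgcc
The stretch of Ezh1 lies at chr11:101226464-101226583 on the minus strand, that of Suz12 at chr11:79992986-79993105 on the plus strand, that of Ring1 at chr17:34024681-34024800 on the minus strand and that of Rnf2 at chr1:151500992-151501111 on the minus strand. All 10 members had a promoter in the RefSeq table, Jarid2 with 2 start sites. In the 250 bases before the start, the GC box was found 3 times for Suz12, 2 times each for Ring1, Rnf2 and Asxl1, 6 times for Bmi1, with some overlapping, and 1 time each for Cbx7 and for both starts of Jarid2, and not for Ezh1, Ezh2 or Eed. It was present in 32.7% of the 32851 promoters of this length in the table. The number of CpG dinucleotides was 14 for Ezh1, 37 for Suz12, 30 for Ring1 and 20 for Rnf2, and the median of all promoters was 6. An ETS motif of the SPI1 type (GAGGAAG) was found in none of the 10 and in 10.6% of all promoters. The common ETS motif CCGGAAG was found only for Asxl1 (6.91% of all), the E2F motifs TTCCCGC or TTGGCGC for Suz12 and Asxl1 (5.62%), and the E-box CACGTG for Bmi1 (6.02%). A match of letters is a description of the sequence and not a site of binding.

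In TgSpi1FA-/- blasts, 4 of the 10 genes differed between the leukaemic and the preleukaemic stage. Ezh1, Suz12 and Ring1 fell and Rnf2 rose in leukaemic cells. Among all 13393 genes tested, 13.3% were called, that is, reached both the adjusted p threshold of 0.05 and the fold threshold of 1.5, with 6.82% higher and 6.49% lower. An unadjusted p under 0.05 was found for the same 4 members and for 32.4% of all genes. These 4 members were also the ones with no overlap between the 2 groups, as were 38.7% of all genes. The median log2 fold change was −0.08 over the 10 members and −0.00 over all genes. DESeq2's Wald test called the same 4 members, with 19.8% of all genes called.

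**Figure D1:**
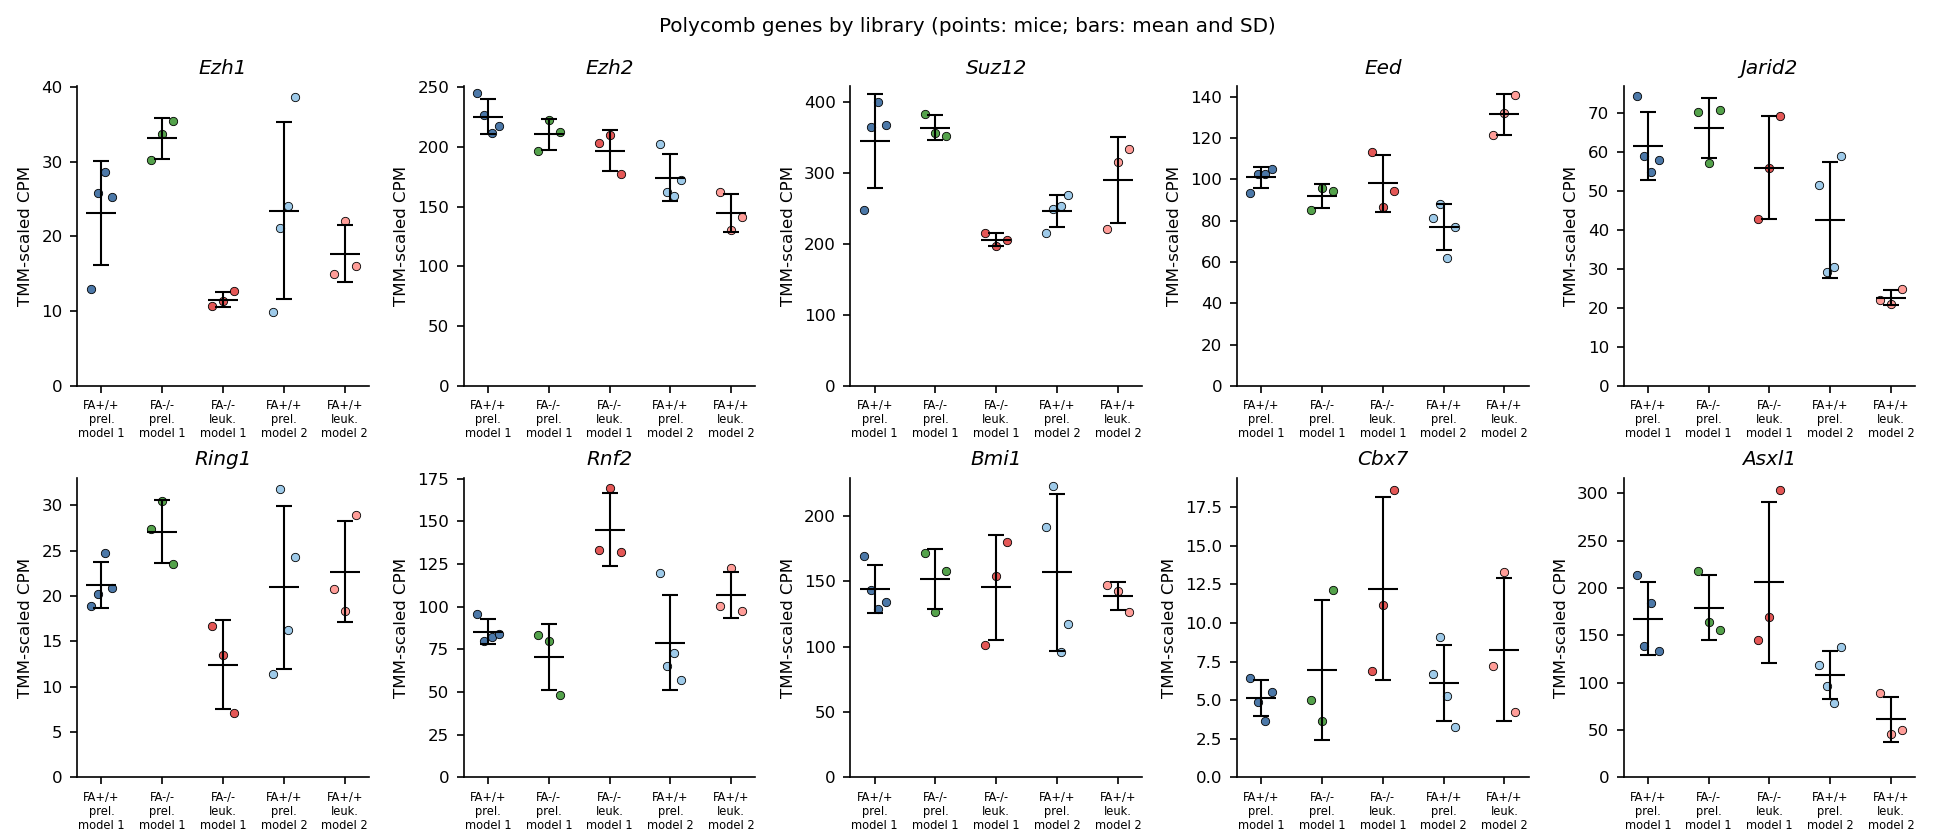
Level of each of the 10 Polycomb genes (y axis, TMM-scaled CPM from 0) in the 5 groups (x axis). Each point is a mouse and the bars are the mean and SD. Ezh1 lies between 10.7 and 12.6 CPM in the 3 FA-/- leukaemic mice of model 1 and between 30.2 and 35.5 CPM in the FA-/- preleukaemic ones, while Ezh2 lies between 177 and 222 CPM in both groups.

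Ezh1 encodes the methyltransferase of PRC2 that predominates in cells that divide little, and lies on chromosome 11 from 101191115 to 101226463 (minus strand). Before progression, P77, P224 and P40 had 33.6, 35.5 and 30.2 CPM of Ezh1. The leukaemic mice L26, L28 and L39 had 10.7, 11.3 and 12.6 CPM. The 2 groups were far apart, and each was tighter than the other groups of the series, with means of 33.1 ± 2.69 (SD, n = 3) and 11.5 ± 0.992 (SD, n = 3). The log2 fold change was −1.52 (standard error 0.285, 95% interval −2.16 to −0.88, edgeR quasi-likelihood adjusted p = 0.0149), a 2.87-fold lower level. In the TgSpi1FA+/+ preleukaemic mice P445, P479, P451 and P138 the level was 25.8, 25.3, 28.6 and 12.98 CPM. There, 3 mice lay below the TgSpi1FA-/- preleukaemic range, and P138 lay just above the leukaemic range. Ezh2, the paralog with the stronger methyltransferase activity that is used by dividing cells, did not follow. Its level was 222, 212 and 197 CPM in P77, P224 and P40, and 203, 210.1 and 177 CPM in L26, L28 and L39 (log2 fold change −0.10, 95% interval −0.35 to 0.15, adjusted p = 0.586).

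Suz12, the scaffold on which PRC2 assembles, lies on chromosome 11 from 79993106 to 80034123 (plus strand). Its level was 356, 352 and 383 CPM in P77, P224 and P40, and 216, 197 and 205 CPM in L26, L28 and L39. All 3 leukaemic libraries lay below all others of model 1, of which P138 was the lowest. The means were 364 ± 17.2 and 206 ± 9.55 (SD, n = 3 each), and the log2 fold change was −0.82 (standard error 0.167, adjusted p = 0.0188). Eed, which binds the methylated histone and stimulates the enzyme, had 85.3 to 96.1 CPM and 86.7 to 113 CPM in the same groups (log2 fold change 0.09, 95% interval −0.18 to 0.37). Jarid2 had 57.3, 70.8 and 70.3 CPM in the preleukaemic mice P77, P224 and P40 and 42.8, 55.8 and 69.3 CPM in the leukaemic mice (log2 fold change −0.24, 95% interval −0.69 to 0.21). For both genes the groups overlapped.

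Ring1 and Rnf2, the alternative ubiquitin ligases of PRC1, moved in opposite directions. Ring1, on chromosome 17 from 34020792 to 34024680 (minus strand), had 30.4, 23.5 and 27.4 CPM in P77, P224 and P40 and 16.7, 13.5 and 7.10 CPM in L26, L28 and L39. Its log2 fold change was −1.12 (standard error 0.303, adjusted p = 0.0404). The lowest value was that of L39, and without that mouse the log2 fold change was −0.82 (adjusted p = 0.0701). Rnf2, on chromosome 1 from 151458004 to 151500955 (minus strand), had 79.7, 48.4 and 83.6 CPM in the preleukaemic mice and 133, 169.6 and 132 CPM in the leukaemic mice. Its log2 fold change was 1.04 (standard error 0.207, adjusted p = 0.0175), a 2.05-fold higher level. The leukaemic libraries lay above every TgSpi1FA+/+ and TgSpi1FA-/- preleukaemic library of model 1, the highest of which was P138 with 95.7 CPM. Exons of Rnf2 share 158 bases (3.83% of its exon length) with Trmt1l on the opposite strand, and Suz12 shares 178 bases (3.60%) with Gm26563. The kit kept the strand, but the strand setting of the count is not given in the sources used here.

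The remaining members of PRC1 and the deubiquitinase module did not pass the test. Bmi1 had 127, 158 and 172 CPM in P77, P224 and P40 and 102, 154 and 180.3 CPM in L26, L28 and L39, with a log2 fold change of −0.07 (95% interval −0.55 to 0.42). Asxl1 had 165, 155 and 218 CPM in the preleukaemic mice and 145, 169 and 303 CPM in the leukaemic mice, in which L39 was far above the others (log2 fold change 0.20, 95% interval −0.47 to 0.87). Cbx7 had 3.68, 12.1 and 5.05 CPM and 6.91, 11.2 and 18.6 CPM (log2 fold change 0.81, 95% interval −0.36 to 1.99). This interval is wide and holds the log2 fold change of Rnf2.

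**Figure D2:**
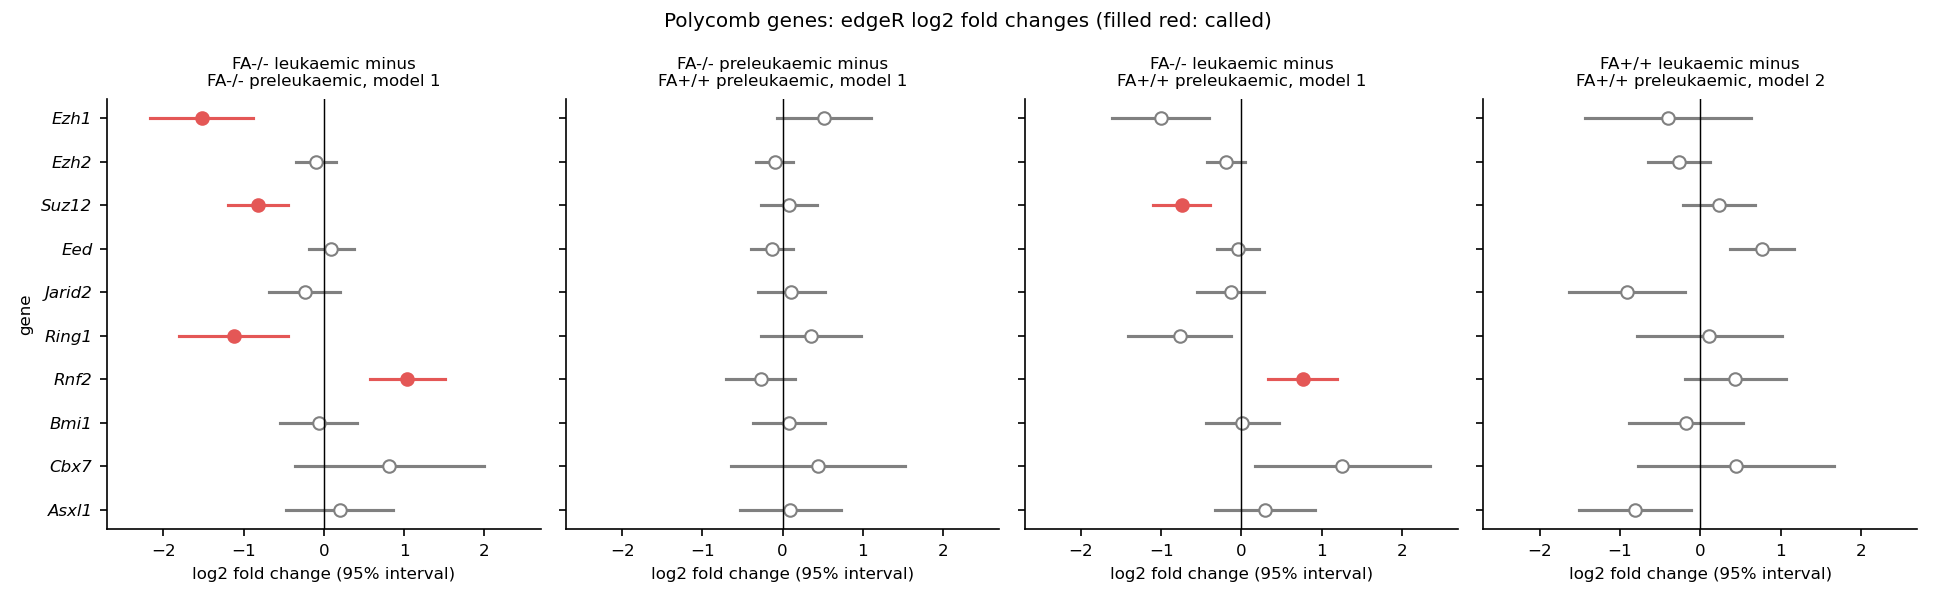
Log2 fold change of each Polycomb gene (x axis) with its 95% interval from edgeR, in 4 comparisons, with called genes in filled red. Ezh1, Suz12, Ring1 and Rnf2 are called between the stages of FA-/- cells, Suz12 and Rnf2 between FA-/- leukaemic and FA+/+ preleukaemic cells, and no gene in the other 2 comparisons.

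These calls rested on 3 mice a group, and single mice moved the adjusted p values around the threshold while the directions stayed. Without L28, 0 of the 4 genes were called, with adjusted p values of 0.0595 for Ezh1, 0.0745 for Suz12, 0.107 for Ring1 and 0.0609 for Rnf2, and 3.01% of all genes. Without P224, Rnf2 alone was called and the log2 fold change was 0.84 (adjusted p = 0.0361), while Ezh1 had an adjusted p of 0.0545, with 2.97% of all genes called. Without L39, in which Spi1 was nearly absent, Ezh1 (log2 fold change −1.56, adjusted p = 0.0411) and Rnf2 (1.13, adjusted p = 0.0373) were called and Suz12 was not (−0.79, adjusted p = 0.0573). Without P40 the same pair was called, with an adjusted p of 0.0526 for Suz12. Of all genes, 5.16% were called without L39 and 5.87% without P40. With P445 and P479 merged into 1 library, Ring1 lost its call (adjusted p = 0.0641) and the other 3 were called, with 9.31% of all genes. Ring1 was called only without L26 or P138 when 1 of the 10 mice was left out. These fits called 16.5% and 15.5% of all genes. Of the TgSpi1FA-/- preleukaemic mice, P224 had 0 counts of Xist and the leukaemic mice at most 3. P224 lay beside P77 and P40 for Ezh1 and Suz12, was the lowest of the 3 for Ring1 (23.5 CPM), and stood apart from them for Rnf2 (48.4 CPM). The part of Xist status in these results was not tested.

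Absence of Fanca in preleukaemic cells went with no called change in the 10 genes. The test called 0.00747% of 13393 genes in this comparison, which is 1 gene, and 0 members had an unadjusted p under 0.05 (8.65% of all genes did). DESeq2's Wald test called 0 members and 1.87% of all genes. Ezh1 showed the only pair of groups without overlap (8.53% of all genes), with 30.2 to 35.5 CPM in TgSpi1FA-/- against 12.98 to 28.6 CPM in TgSpi1FA+/+ cells. Its log2 fold change was 0.51 (95% interval −0.07 to 1.10, adjusted p = 0.612). For Ezh2, Suz12 and Eed the intervals were narrow, from −0.33 to 0.13, from −0.27 to 0.43 and from −0.40 to 0.12 on the log2 scale. Rnf2 was not shown to differ (log2 fold change −0.28, 95% interval −0.71 to 0.16), and P224 with 48.4 CPM was the only TgSpi1FA-/- mouse outside the TgSpi1FA+/+ range of 79.6 to 95.7 CPM.

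Against the TgSpi1FA+/+ preleukaemic mice, TgSpi1FA-/- leukaemic cells had a lower level of Suz12 and a higher level of Rnf2. This comparison shares the leukaemic mice with the first one and the TgSpi1FA+/+ mice with the second. Suz12 had 365, 367, 399.6 and 248 CPM in P445, P479, P451 and P138, above all 3 leukaemic libraries (log2 fold change −0.74, standard error 0.158, adjusted p = 0.0299). Rnf2 had 79.6, 84.1, 82.0 and 95.7 CPM in these mice, a range below all leukaemic libraries (log2 fold change 0.76, standard error 0.190, adjusted p = 0.0441). With these 2 genes, 20.0% of the members were called against 7.01% of all genes, of which 3.55% were higher and 3.46% lower. Ezh1 did not pass (log2 fold change −1.004, adjusted p = 0.0526 with edgeR and 0.00973 with DESeq2's Wald test), and P138 was its lowest library with 12.98 CPM. Without P138, the 3 genes Ezh1, Rnf2 and Suz12 were called, with 11.6% of all genes. The groups did not overlap for 6 members, Ezh1, Ezh2, Suz12, Ring1, Rnf2 and Cbx7, against 25.7% of all genes. With P445 and P479 merged, 0 members and 0.914% of all genes were called, and 0 members were called when P445, P479, P451, L28 or L39 was left out. Those left-out fits called 0.730%, 0.790%, 2.86%, 0.385% and 1.32% of all genes in turn, so calls were lost among all genes too.

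A further deposited table held other counts for these 7 mice (31633 genes and 35497594 to 171572736 counts per library). In it Rnf2 had a log2 fold change of 1.06 (adjusted p = 0.0579), Ezh1 of −1.03 (adjusted p = 0.121), Ring1 of −1.17 (adjusted p = 0.176) and Suz12 of −0.52 (adjusted p = 0.277), all by the quasi-likelihood fit of edgeR. It called 0 members and 1.59% of 16799 genes. The direction of these 4 genes was that of the first table, while Eed (0.11) and Asxl1 (−0.12) had the opposite sign. In this table P445 and P479 were again the closest pair of the same group, but at 366 by the same measure, where the other pairs had 408 to 807.

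In model 2, where leukaemic cells kept Fanca, no member passed the test. There too the erythroid sum was lower in leukaemic cells (3310 to 5828 against 5959 to 10535 CPM), without overlap, and the sum of 6 mast cell markers was higher (92.1 to 154 against 3.71 to 59.1 CPM). The part of these differences in the values of the members was not tested. The edgeR test called 0 of 12970 genes, so that its share was 0%, and 19.9% of all genes and 3 members had an unadjusted p under 0.05. DESeq2's Wald test called 3.45% of all genes and 1 member, Eed (adjusted p = 0.0499). Eed had 81.5, 88.2, 61.8 and 76.9 CPM in the preleukaemic mice P633, P663, P812 and P837 and 121, 132 and 141 CPM in the leukaemic mice L601, L606 and L921. The groups did not overlap, and the log2 fold change was 0.77 (standard error 0.174, 95% interval 0.37 to 1.17, adjusted p = 0.162 with edgeR). Jarid2 had 51.5, 29.3, 30.5 and 58.9 CPM before and 22.0, 21.1 and 24.7 CPM after progression, again without overlap (log2 fold change −0.91, standard error 0.311, adjusted p = 0.185). These were the members whose groups did not overlap, 2 of 10, against 20.1% of all genes. Asxl1 had 119, 96.8, 78.9 and 137 CPM and 88.7, 46.0 and 49.7 CPM, with L601 inside the preleukaemic range (log2 fold change −0.81, adjusted p = 0.204). 

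Of the 4 genes that differed in model 1, Ezh1, Ring1 and Rnf2 were spread widely among the preleukaemic mice of model 2, and Suz12 was not. Ezh1 had 9.86, 21.1, 24.1 and 38.7 CPM in P633, P663, P812 and P837, a range that held all 3 leukaemic mice with 15.0, 22.0 and 16.1 CPM. Suz12 had 215, 248, 253 and 269 CPM and then 221, 315 and 334 CPM, and its log2 fold change was 0.24 (95% interval −0.21 to 0.69). Ring1 had 11.4, 31.8, 16.2 and 24.3 CPM and then 20.8, 18.3 and 29.0 CPM. Rnf2 had 119.6, 65.5, 72.9 and 57.3 CPM and then 100.5, 122 and 97.3 CPM (log2 fold change 0.44, 95% interval −0.19 to 1.07). The mouse P633 had the lowest Ezh1 and Ring1 and the highest Rnf2 of the preleukaemic mice of this model. Ezh2 had 159 to 202 CPM and 130.3 to 162 CPM in these groups, Bmi1 had 95.8 to 223 CPM and 126 to 147 CPM, and Cbx7 had 3.26 to 9.12 CPM and 4.26 to 13.3 CPM.

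Whether the leukaemic change itself differed between the models was tested as an interaction over the genes of both tables. Suz12 was the member that passed, with a change lower by 1.07 on the log2 scale in model 1 (log2 difference −1.07, standard error 0.257, adjusted p = 0.0378). The test called 4.61% of 14597 genes, 1.85% in the lower and 2.76% in the higher direction, and 10.0% of the members. The corresponding differences were −0.69 for Eed (adjusted p = 0.0580, and 0.0251 with DESeq2's Wald test), −1.13 for Ezh1 (adjusted p = 0.201), −1.25 for Ring1 (adjusted p = 0.135), 1.004 for Asxl1 (adjusted p = 0.153) and 0.58 for Rnf2 (adjusted p = 0.292). For Ezh1, Ring1 and Rnf2 the leukaemic change was therefore not shown to differ between models. The call of Suz12 was absent with P445 and P479 merged, without a filter on low counts, and in 10 of the 17 fits that left out 1 mouse, in which the difference ranged from −1.25 to −0.95 over all 17. The fits without this call had at most 2.08% of all genes called. The fit without L601 kept the call with 0.381% of all genes. 

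Within a library, the ratio of paralogs does not depend on scaling between libraries. The ratio of Ezh2 to Ezh1, per exon length, was 7.36, 6.67 and 7.27 in P77, P224 and P40, and 21.2, 20.7 and 15.6 in L26, L28 and L39. It was 2.68-fold higher in the leukaemic mice (p = 0.1 by an exact permutation test, two-sided, which cannot go lower with 3 against 3 mice). In the TgSpi1FA+/+ preleukaemic mice it was 9.80, 9.57, 8.26 and 21.04 in P445, P479, P451 and P138. All 4 values were above those of the TgSpi1FA-/- preleukaemic mice (exact permutation test, p = 0.0571, the smallest that 3 against 4 allows), and P138 was as high as the leukaemic mice (p = 0.171 for leukaemic against TgSpi1FA+/+ preleukaemic). These p values count P445 and P479, the pair with the closest counts, as 2 mice. No ratio was tested with this pair as 1 library. In model 2 the ratio was 4.95 to 22.9 before and 6.59 to 12.0 after progression, with the log2 means 0.00 apart (exact permutation test, p = 0.971).

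The ratio of Rnf2 to Ring1 separated the 3 groups of model 1 without overlap. It was 2.06, 1.62 and 2.40 in the TgSpi1FA-/- preleukaemic mice P77, P224 and P40, 3.09, 3.16, 2.60 and 3.97 in the TgSpi1FA+/+ preleukaemic mice P445, P479, P451 and P138, and 6.27, 9.87 and 14.6 in the leukaemic mice L26, L28 and L39. Leukaemic cells had a 4.84-fold higher ratio than the TgSpi1FA-/- preleukaemic cells (exact permutation test, p = 0.1) and a 3.05-fold higher ratio than the TgSpi1FA+/+ ones (p = 0.0571 by the same test), the smallest p that each design allows. The latter p again counts P445 and P479 as 2 mice. In the further table the ratio of the leukaemic mice was 4.30, 8.92 and 14.2, and that of the TgSpi1FA+/+ mice 0.988 to 2.44, again without overlap. In model 2 the ratio was 1.62 to 8.21 before and 2.64 to 5.25 after progression (exact permutation test, p = 0.686).

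**Figure D3:**
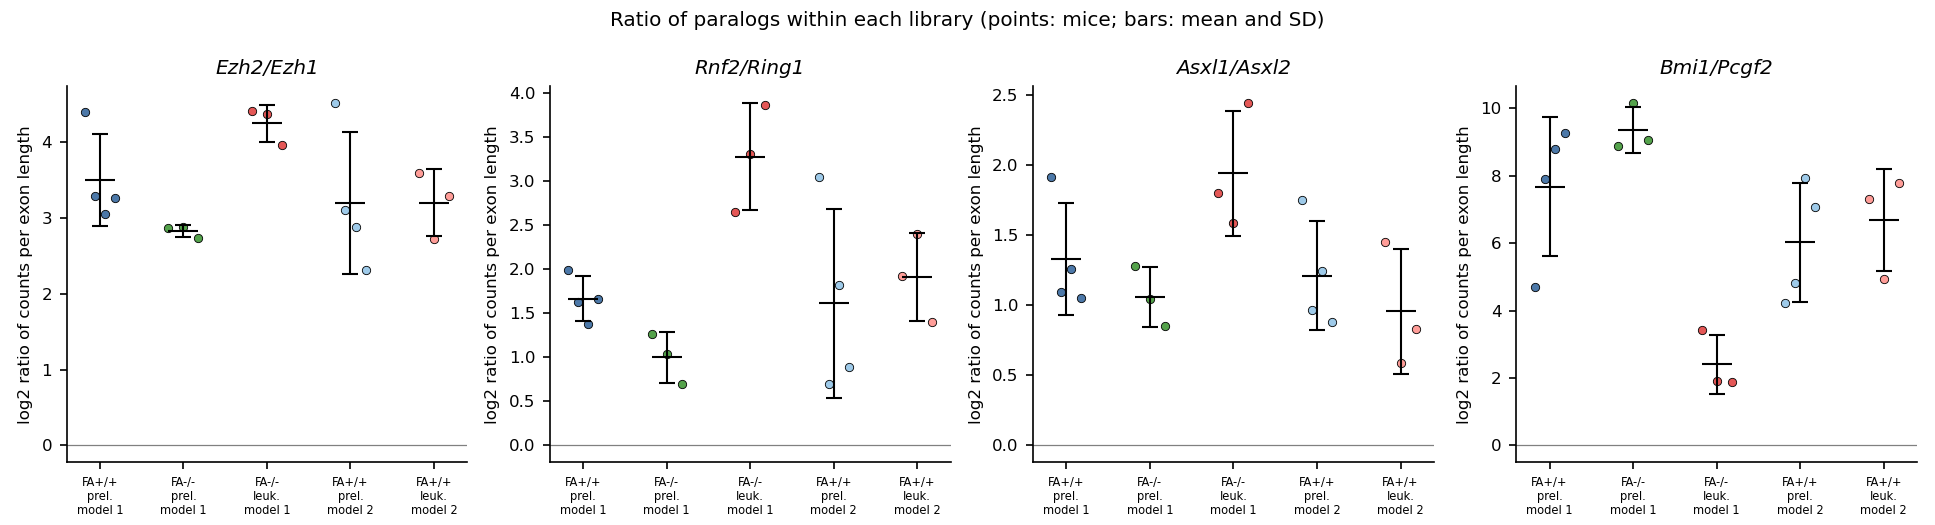
Log2 ratio of counts per exon length (y axis) of Ezh2 to Ezh1, Rnf2 to Ring1, Asxl1 to Asxl2 and Bmi1 to Pcgf2 within each library, by group (x axis). Points are mice and bars the mean and SD. The 3 FA-/- leukaemic mice lie above both preleukaemic groups of model 1 for Rnf2 to Ring1 and below both for Bmi1 to Pcgf2, where a count of 0 for Pcgf2 in P77 was set to 3.

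Among the members themselves, the order of levels per exon length was much the same in the 5 groups, with Suz12 at the top and Jarid2, Ring1, Ezh1 and Cbx7 at the bottom. Suz12 had 69.7 ± 13.5 CPM per kb in TgSpi1FA+/+ preleukaemic, 73.5 ± 3.47 in TgSpi1FA-/- preleukaemic and 41.7 ± 1.93 in TgSpi1FA-/- leukaemic cells of model 1 (SD, n = 4, 3 and 3). It stood apart from Bmi1, the next in order, in both preleukaemic groups of model 1 and overlapped with it in the leukaemic group, where Bmi1 had 36.6 ± 10.1 CPM per kb. Rnf2 was sixth with 17.1 ± 4.68 CPM per kb in TgSpi1FA-/- preleukaemic cells and ranked 3 with 35.1 ± 5.18 in leukaemic cells, overlapping there with Bmi1 but not with Ezh2 (29.5 ± 2.61). Ezh1 was above Cbx7 in the 4 other groups and ranked 10 in TgSpi1FA-/- leukaemic cells with 1.55 ± 0.133 CPM per kb, where its range overlapped with that of Cbx7 (1.89 ± 0.914). In leukaemic cells of model 2, Eed ranked 3 with 34.4 ± 2.55 CPM per kb, overlapping with Bmi1 (34.9 ± 2.75).

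**Figure D4:**
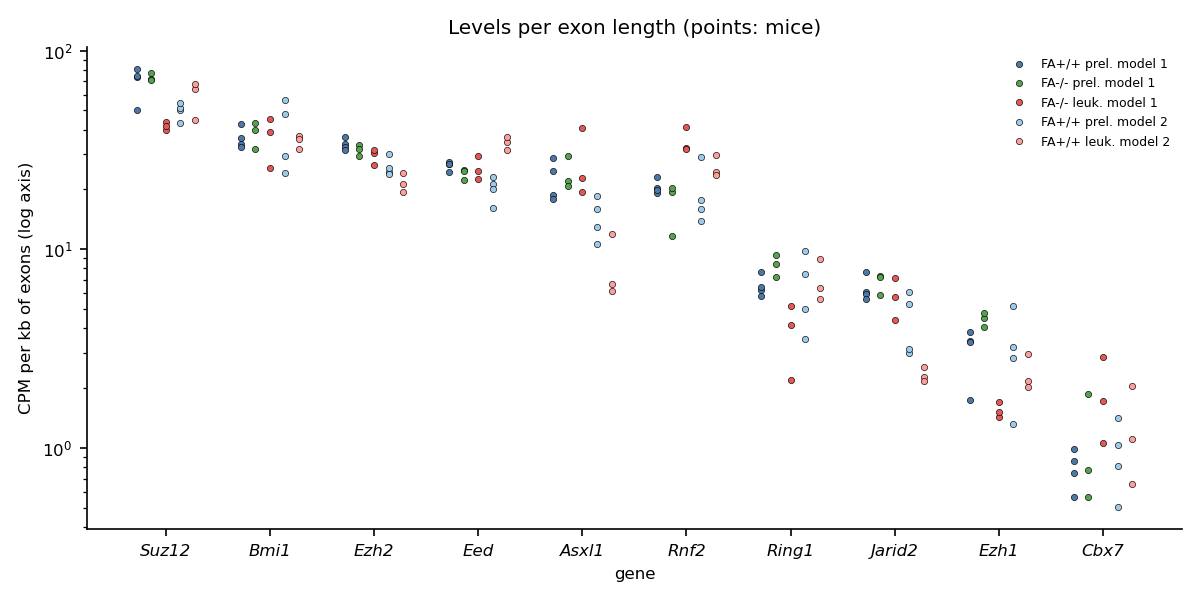
Level per kb of exons of the 10 Polycomb genes (x axis) on a log axis in CPM per kb (y axis). Each point is a mouse, coloured by group. Suz12 has the highest mean in all 5 groups, and the FA-/- leukaemic mice have the lowest Ezh1 mean (1.55 CPM per kb) and the highest Rnf2 mean (35.1 CPM per kb).

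Other genes of the same complexes were taken from lists of 55 symbols, of which 52 were in the table of model 1 and 49 were tested. Between the stages of TgSpi1FA-/- cells, 8 of them were called (16.3%), 3 higher and 5 lower, with a median log2 fold change of −0.05. This share is near that of all genes (13.3%, with 6.82% higher and 6.49% lower), and the genes below are given as a description. It holds Pcgf2, Epop and Sfmbt2, the 3 called higher, which were at or near 0 in the TgSpi1FA-/- preleukaemic mice. Counts of calls that include these 3 genes are not used as support. By module, 2 of 9 other PRC2 genes, 4 of 15 genes listed with core PRC1, 1 of 12 variant PRC1 genes, 1 of 10 genes around the deubiquitinase and 0 of 3 demethylases were called. The calls in the list of core PRC1 included Sfmbt1 and Sfmbt2, MBT domain genes that were listed there but are not core subunits. With the members, 12 of 59 genes were called, 4 higher and 8 lower.

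The genes that fell included Phc3, a polyhomeotic subunit of PRC1, with 62.1, 71.4 and 89.2 CPM in P77, P224 and P40 and 25.0, 35.4 and 35.8 CPM in L26, L28 and L39 (log2 fold change −1.21, adjusted p = 0.0273). L3mbtl2, of a variant PRC1, had 161, 198 and 176 CPM and then 109, 57.5 and 52.2 CPM (log2 fold change −1.29, adjusted p = 0.0172). Asxl2, the paralog of Asxl1, had 171, 184 and 192.5 CPM and then 89.4, 121 and 120 CPM (log2 fold change −0.73, adjusted p = 0.0203). For each of these 3 genes all leukaemic libraries were below all preleukaemic ones. Lcorl, whose locus encodes a PRC2 accessory protein, and Sfmbt1, an MBT domain protein, were the others that fell (log2 fold changes −1.06 and −1.62, adjusted p = 0.0280 and 0.0334). The ratio of Asxl1 to Asxl2 was 1.84-fold higher in the leukaemic mice (exact permutation test, p = 0.1, the smallest possible).

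The genes called higher were at or near 0 in the TgSpi1FA-/- preleukaemic mice. They passed the filter on low counts through libraries of the other groups, so their values are given with no p. Pcgf2 (MEL18), the closest paralog of Bmi1, had 0, 0.263 and 0.324 CPM in P77, P224 and P40 and 8.44, 36.4 and 43.1 CPM in L26, L28 and L39. In the TgSpi1FA+/+ preleukaemic mice it had 0.190 to 5.79 CPM. Epop, an accessory subunit of PRC2, had 0 counts in the preleukaemic mice and 7.34, 53.6 and 60.9 CPM in the leukaemic ones, at least 430.2-fold higher. In TgSpi1FA+/+ preleukaemic cells it reached 19.3 and 18.7 CPM in P445 and P479, the pair with the closest counts, and 0.160 and 0.454 CPM in P451 and P138. Sfmbt2, a second MBT domain protein, had 0 counts before and 1.89, 8.89 and 0.533 CPM after progression, at least 39.96-fold higher. It passed the filter on low counts only through the leukaemic mice, and with a filter of 1 CPM in 3 libraries it was not tested and 7 genes of the lists were called. These folds are bounds against 3 counts in each library and cover counting error only.

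**Figure D5:**
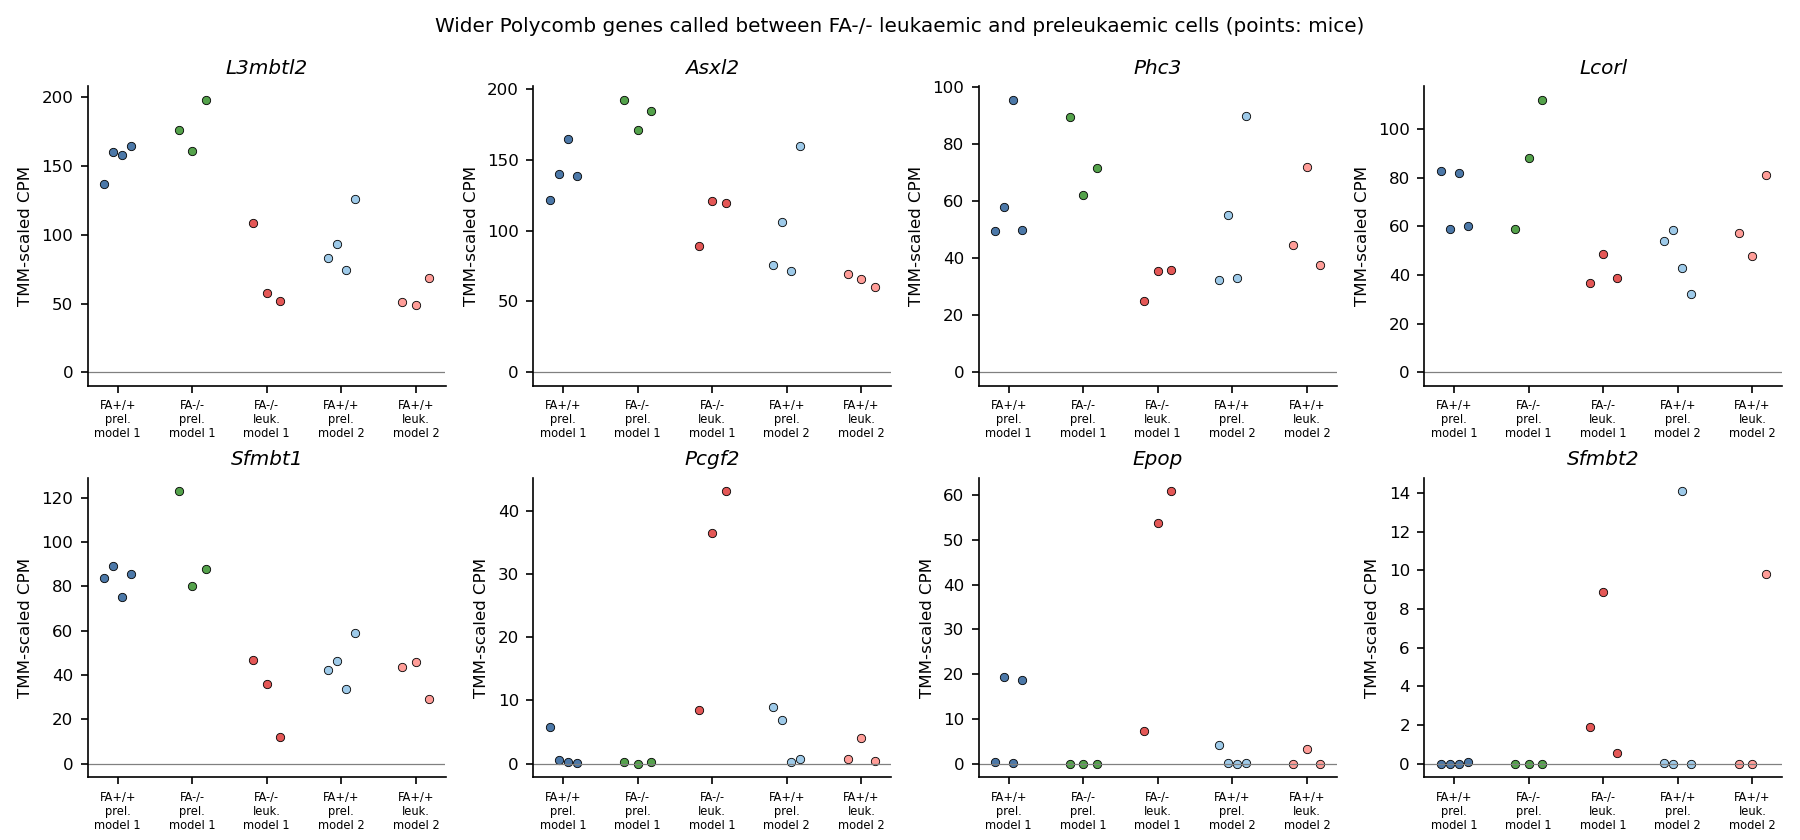
Level (y axis, TMM-scaled CPM) of the 8 other Polycomb genes called between FA-/- leukaemic and preleukaemic cells, by group (x axis), each point a mouse. L3mbtl2, Asxl2, Phc3, Lcorl and Sfmbt1 are lower in the leukaemic mice of model 1, and Pcgf2, Epop and Sfmbt2 are near 0 in the FA-/- preleukaemic mice.

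Other partners of these complexes did not pass the test. Rbbp4, the histone chaperone of PRC2, had 447 to 659 CPM and 565 to 731 CPM (log2 fold change 0.26, adjusted p = 0.436), and its relative Rbbp7 had a log2 fold change of −0.05. Bap1 and Cbx8 had log2 fold changes of 0.04 and −0.09. The demethylase gene Kdm6b, whose protein removes the mark of PRC2, had 85.8, 72.4 and 98.5 CPM and then 124, 164.5 and 148 CPM, with no overlap and without a call (log2 fold change 0.77, adjusted p = 0.119). Kdm6a, its X-linked paralog, had 124, 49.1 and 134 CPM in P77, P224 and P40 and 56.2, 57.7 and 67.7 CPM in the leukaemic mice (log2 fold change −0.76, adjusted p = 0.166). The 2 preleukaemic mice with counts of Xist were those with the higher values.

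In the other comparisons the wider lists gave fewer calls, as did all genes. Between the preleukaemic genotypes 0 of 49 were called (0.00747% of all genes), with 4 at an unadjusted p under 0.05 (8.65% of all genes) and 2 by DESeq2's Wald test (1.87%). In model 2, 0 of 47 were called (0% of all genes), with 13 at an unadjusted p under 0.05 (19.9% of all genes) and 2 by DESeq2 (3.45%). L3mbtl2 and Asxl2, which fell in model 1, were also lower there without overlap, as 20.1% of all genes did not overlap. Their log2 fold changes were −0.75 and −0.67, and the change was not shown to differ between models (edgeR adjusted p = 0.336 and 0.914). Phc3 (−0.04), Sfmbt1 (−0.20) and Lcorl (0.40) overlapped in model 2. Against the TgSpi1FA+/+ preleukaemic mice, 3 of 49 (6.12%) were called in TgSpi1FA-/- leukaemic cells, a share below that of all genes (7.01%). L3mbtl2 was lower (log2 fold change −1.09, edgeR adjusted p = 0.0333), and Scmh1 and Sfmbt2 were higher. Sfmbt2 had at most 3 counts in each TgSpi1FA+/+ mouse and passed the filter only through the leukaemic mice. Both higher genes were near 0 in the TgSpi1FA+/+ mice, so they have no p here and the share is not used as support. Scmh1, a sex comb on midleg homolog of PRC1, had 0 to 0.795 CPM in the TgSpi1FA+/+ and 12.4 to 23.3 CPM in the leukaemic mice, but also 1.003 to 39.4 CPM in the TgSpi1FA-/- preleukaemic mice. The leukaemic change differed between the models for 5 of 49 genes (10.2%, and 4.61% of all genes). Mtf2, a PRC2 accessory subunit that recruits it to CpG islands, and Lcorl had lower changes in model 1 (log2 differences −1.08 and −1.49, adjusted p = 0.0345 and 0.0444). Bcor and Fbrsl1 had higher ones (2.95 and 1.33, adjusted p = 0.0354 and 0.0396). Pcgf2, also among the 5, had a difference of 8.41. It was at or near 0 in the TgSpi1FA-/- preleukaemic mice, so no p is given and the share that holds it is not used as support. Bcor, the scaffold of a variant PRC1, had 149.99, 138.3 and 169 CPM in P77, P224 and P40, then 108, 312 and 669 CPM in L26, L28 and L39 of model 1, and 42.2 to 145 CPM and then 19.5 to 37.1 CPM in model 2.

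Genes that Polycomb is known to silence in other tissues were read as a list of 74, of which 44 were in the table of model 1 and 12 passed the filter. Between the TgSpi1FA-/- stages 2 were called (16.7%, near the 13.3% of all genes), both lower in leukaemic cells, with a median log2 fold change of 0.07 over the 12. Pax6, a neural and eye transcription factor, had 105, 174 and 139 CPM in P77, P224 and P40 and 9.76, 4.55 and 4.08 CPM in L26, L28 and L39 (log2 fold change −4.51, adjusted p = 0.00195). Six2, a kidney progenitor factor, was at most 1 count in each leukaemic library and 80.4, 425 and 185 CPM before, at least 2938-fold lower against a floor of 3 counts in each library. It passed the filter on low counts through the preleukaemic mice, where it is high, so no p is given. Its call is among the 2 above, so the share of the target list is not read as a result. In the TgSpi1FA+/+ preleukaemic mice Pax6 had 39.9 to 71.7 CPM and Six2 had 0.823 to 25.0 CPM. The leukaemic change of Pax6 was lower by 3.68 in model 1 than in model 2 (log2 difference −3.68, adjusted p = 0.0285).

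Of 170 genes tested within 5 Mb of Ezh1, the median log2 fold change between the TgSpi1FA-/- stages was 0.21, and it was −0.00 for the 132 genes around Suz12, −0.12 for 211 around Ring1 and 0.15 for 48 around Rnf2. Over the 10 libraries of model 1, the genes with the profile most like Ezh1 by Pearson's r of log2 CPM were Slco3a1 (r = 0.98), Cog5 (0.98), Ube2q2 (0.97), Snx17 (0.97) and Rxrb (0.97). Over the 7 libraries of model 2 their r with Ezh1 was 0.78, 0.87, 0.49, −0.26 and 0.63. For Ezh2 they were Tssc4 (0.91), Sapcd2 (0.89), Trmt2a (0.88), Acss2 (0.85) and Gemin7 (0.85), with −0.19, −0.53, −0.21, 0.78 and −0.82 in model 2. The points of these correlations share libraries and groups, and are given as a description.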

How the data were processed

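RNA-seq of 17 mice was analysed from tables that the authors deposited as counts, the number of reads on each Ensembl gene before any normalization. Per the submitters' processing notes, bcl2fastq 2.17.1.14, STAR 2.5.3a and HTSeq 0.6.1p1 were used with mm10 (GRCm38). The annotation and the strand setting of the count are not given in the sources used here. GENCODE M21 held 99.8% of the identifiers of model 1. The counts of model 1 (10 mice), model 2 (7 mice) and a further table of 7 mice of model 1 were used, and a duplicate of the second was left out. There were no columns of other samples. Total counts were at least 29964576 per library. A count of 3 was taken as the floor, which covers counting error only.

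Counts were filtered with filterByExpr, scaled by TMM and tested with the quasi-likelihood functions of edgeR 4.0.16 (R 4.3.3), with all groups of a model in 1 fit, or of both models for the difference of changes. Adjusted p values are those of Benjamini and Hochberg over all genes tested, and a gene was called if both the adjusted p (below 0.05) and the fold change (1.5 or more) passed. Intervals are at 95%. Ratios of paralogs per exon length were compared with two-sided exact permutation tests (scipy 1.17.1), and p values measure the spread between mice. The chain was run on simulated counts. Recovery of changed genes was required there only at a fixed low spread between mice, so recovery at the spread of these mice is not shown. Promoter sequences came from RefSeq.

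The members, the lists and the tests were chosen with earlier results of these data known. The genes named are the 10 members, the called genes of the other Polycomb lists (up to 12) with 6 others fixed by name, the called genes of the target list (up to 5 a direction) and, for Ezh1 and Ezh2, the 5 genes with the most similar profile. Genes around the members, Spi1, Xist and Ddx3y, and the ratios in the further table were looked at after values had been seen. Ddx3y, on the Y chromosome, had counts above 3 only in P445, P479, L26 and L28 of model 1. Uty, a Y-linked gene of the demethylase list, had 298, 546, 1816 and 456 counts in these mice. It also had 2450 counts (71.6 CPM) in P224, where Ddx3y had 0. Alternatives were DESeq2's size factors and Wald test (version 1.42.0), tests on all genes or on genes with 1 CPM in 3 libraries, robust empirical Bayes, the adjusted p alone, the compared groups alone, P445 and P479 as 1 library, and each mouse left out.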

Additional observations from a re-analysis of the deposited data

Results flagged for a closer look

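The leukaemic change of 7 named genes differed between the models by the interaction test of edgeR, which compares the change in TgSpi1FA-/- cells of model 1 with that in TgSpi1FA+/+ cells of model 2 and in which model, strain and library protocol cannot be told apart. The log2 differences were −1.07 for Suz12, −1.08 for Mtf2, −1.49 for Lcorl and −3.68 for Pax6, and 1.33 for Fbrsl1, 2.95 for Bcor and 8.41 for Pcgf2. The value of Pcgf2 rests on fitted levels near 0 in preleukaemic mice. The 28 groups with 4 mice, of member values or of log2 ratios of paralogs, held 0 mice that stood apart from the others by Dixon's test. There, chance flags about 5% of groups.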

How the results depend on the processing

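No paired analysis was possible because the numbers in the labels are mouse numbers that no groups share. Between the TgSpi1FA-/- stages, 3 to 4 members were called over the alternatives that kept all mice and 0 to 4 with 1 mouse left out. The share of all genes called moved as well, from 13.3% in the main fit. It ranged from 5.41% without a filter to 19.8% with DESeq2's Wald test. With 1 mouse left out it ranged from 2.97% to 16.5%. With the compared groups alone, 5 genes of the wider lists were called in place of 8, namely Asxl2, Epop, Kdm6b, Pcgf2 and Phc3. Kdm6b was not among the 8. The count was 6 with P445 and P479 as 1 library, 7 with 1 CPM in 3 libraries, 9 with the adjusted p alone, and 0 to 9 with a mouse left out. Between the preleukaemic genotypes 0 members were called throughout. Against TgSpi1FA+/+ preleukaemic mice the 2 calls became 3 (with Ezh1) with DESeq2's Wald test and with robust empirical Bayes, 1 without a filter, 1 with the compared groups alone, 0 with P445 and P479 as 1 library, 0 in the further table and 0 to 3 with a mouse left out. Of all genes, 7.01% were called there in the main fit and 0.914% to 14.8% over the alternatives. With a mouse left out the share was 0.385% to 13.6%. In model 2, DESeq2's Wald test called 1 member. The fits with a mouse left out used edgeR, which called 0 genes with all mice and at most 1 gene in these fits. Their 0 called members therefore cannot test the call by DESeq2. The 1 call for the difference between models became 2 with DESeq2's Wald test, 0 without a filter, 0 with the pair merged and 0 to 2 with a mouse left out. Of all genes, 4.61% were called in its main fit, and 13.5%, 1.26% and 2.08% in those alternatives in turn. With a mouse left out the share was 0.00664% to 9.38%. The cause of these shifts was not tested.

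The log2 fold changes of Ezh1, Suz12, Ring1 and Rnf2 between the TgSpi1FA-/- stages kept their direction in every alternative run. Values that changed sign were those of members that were not called. Against TgSpi1FA+/+ preleukaemic mice, Bmi1 was −0.00736 with the pair merged, and Eed and Asxl1 were 0.11 and −0.12 in the further table. With a mouse left out, the ranges were −0.16 to 0.21 for Bmi1, −0.16 to 0.0572 for Eed, −0.0789 to 0.49 for Asxl1 and −0.30 to 0.0224 for Jarid2 in that comparison. Between the TgSpi1FA-/- stages they were −0.23 to 0.14 for Bmi1, −0.0158 to 0.20 for Eed and −0.17 to 0.40 for Asxl1. Between the preleukaemic genotypes they were −0.0512 to 0.15 for Suz12, −0.24 to 0.74 for Cbx7, −0.0190 to 0.19 for Bmi1 and −0.0691 to 0.24 for Asxl1. In model 2 they were −0.0947 to 0.39 for Ring1, −0.33 to 0.0416 for Bmi1 and −0.0863 to 0.77 for Cbx7, and for the difference between models −0.13 to 0.30 for Bmi1 and −0.0765 to 1.04 for Cbx7. The log2 ratios of Ezh2 to Ezh1 and of Rnf2 to Ring1 in model 2 ranged from −0.30 to 0.44 and from −0.00804 to 0.77. Every member had over 3 counts in every library.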
